A study of Saccharomyces cerevisiae with 12 samples.

Results

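Amino acid biosynthesis genes were followed on the arrays as a set of 43 genes of *Saccharomyces cerevisiae*, among the 5716 probe sets tested for this yeast. Each gene was read by a probe set, that is, by several short probes made for the same transcript. Members were taken as the rows of the deposited log2 table whose gene symbol belongs to the arginine, histidine, branched-chain, lysine or aromatic pathway, together with *GCN4*. Each member had 1 probe set. For 42 of them it was among the tested probe sets, whereas the only row of *TRP1* was a reporter control probe set, which was fitted separately. The choice of members used no measured value, but it was made with earlier results of these data known.

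Gene expression was measured in 4 groups of 3 arrays each. These were EG110 cells grown for 48 h with 15 mM aspirin (acetylsalicylic acid, ASA), untreated EG110 cells, EG103 cells with the same dose of aspirin, and untreated EG103 cells. EG103 is the wild-type strain, a *MATα* strain with the alleles *leu2-3 112*, *his3Δ1*, *trp1-289a* and *ura3-52*, and *GAL*+. EG110 is EG103 in which *SOD2*, the gene of the mitochondrial manganese superoxide dismutase (MnSOD), was replaced by *TRP1*. All groups therefore share the *leu2*, *his3* and *ura3* alleles, and the wild-type strain is itself unable to make leucine, histidine, tryptophan and uracil, while EG110 carries a functional *TRP1*. All cultures grew aerobically in ethanol medium (YPE) with yeast extract and bactopeptone, which supply amino acids. The pH of the aspirin medium was set with Trizma base, and the same is not stated for the medium without aspirin, so that an effect of aspirin and one of this adjustment cannot be told apart. Each strain is 1 mutant or wild-type line, so a difference between the strains cannot be told apart from one between these lines.

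Yeast can make every amino acid of its proteins, and most enzymes of these pathways are under general amino acid control. When an amino acid is scarce, uncharged tRNA activates the kinase Gcn2, and the mRNA of the transcription factor Gcn4 is translated more, so that Gcn4 activity is set largely by translation and protein stability and less by its mRNA. Gcn4 then activates genes of nearly all amino acid pathways, beside regulators of single pathways such as Leu3 for the branched-chain amino acids, Lys14 for lysine and the Arg80-Arg81-Mcm1 complex for arginine. Several early steps of the arginine, branched-chain and lysine pathways take place in the mitochondria.

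Over the tested probe sets, array medians ran between 11.15 and 11.18 (log2) for EG110 and between 11.36 and 11.39 for EG103, and probe sets that match no gene of *S. cerevisiae* were also lower on the EG110 arrays (4.00 to 4.02, against 4.16 to 4.19). Differences between the strains are therefore also given relative to the median of all tested probe sets. The labels were checked on *SOD2*, whose mean log2 value was 4.77 ± 0.04 and 4.71 ± 0.26 in treated and untreated EG110 cells, and 14.28 ± 0.08 and 14.30 ± 0.09 in treated and untreated EG103 cells (SD, n = 3 each). The 4 *MATα* marker genes lay between 10.17 and 14.19 in EG110 cells and between 9.12 and 13.62 in EG103 cells. The 6 markers of *MATa* cells lay between 6.23 and 9.18 in EG110 cells and between 7.21 and 9.76 in EG103 cells, above the level of the probe sets without a gene, and the part of cross-hybridisation in this was not tested. With aspirin, 1 of the *MATα* markers was called higher and 2 of the *MATa* markers were called lower in EG110 cells, 2 and 0 were called in EG103 cells, and 3 *MATα* markers were higher and 1 *MATa* marker lower in untreated EG110 than in untreated EG103 cells; their part in the results for the amino acid genes was not tested. The members' own values lay between 8.67 and 14.65, and the highest value of any probe set was 15.12.

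With aspirin, 9 members fell and 1 rose in EG110 cells, and 32 did not pass the thresholds, which were an adjusted P below 0.05 by limma and a fold change of at least 1.5. The 9 were *ARG4*, *BAT2*, *LEU2*, *HIS1*, *HIS4*, *ARG3*, *LEU4*, *ILV5* and *ILV2*, and the 1 that rose was *HIS6*. Thus 23.8% of the members were called, against 12% of all tested probe sets, and 21.4% were called lower, against 6.09% of all, and 1 was called higher, where 5.90% of all were. The median log2 fold change of the members was -0.21, beside 0.02 over all tested probe sets. Without a fold threshold, 22 members were lower and 6 higher, so that 66.7% passed an adjusted P of 0.05, against 52.3% of all. The calls were spread unevenly over the pathways, with 5 of 11 in the branched-chain pathway, 3 of 7 in the histidine pathway, 2 of 7 in the arginine pathway and 0 in the lysine and aromatic pathways, of which 5 of 7 and 3 of 9 genes passed an adjusted P of 0.05 alone.

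In EG103 cells, 0 of the 42 members with a tested probe set were called by limma, against 2.61% of all tested probe sets, which divide into 1.75% higher and 0.857% lower. The adjusted P alone was below 0.05 for 7 members, 4 of them with a positive and 3 with a negative log2 fold change, a share of 16.7% against 20.6% of all. An unadjusted P below 0.05 was found for 13 members. The share of all at that threshold was not counted, so this count cannot be read as a response of the members. The unpaired test of the methods also gave 0 calls. The median log2 fold change of the members was 0.05, and single values lay between -0.32 for *HIS4* and 0.48 for *ARG3*. Whether the response to aspirin differed between EG110 and EG103 was tested as an interaction in the same fit, and this difference was called for 10 members, with 9 more negative in EG110 cells and 1 more positive. This is 23.8% of the members, against 11.6% of all tested probe sets (6.37% more negative and 5.21% more positive). By the adjusted P alone, 24 members passed, against 33.1% of all. The median difference of the members was -0.21.

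**Figure D1:**
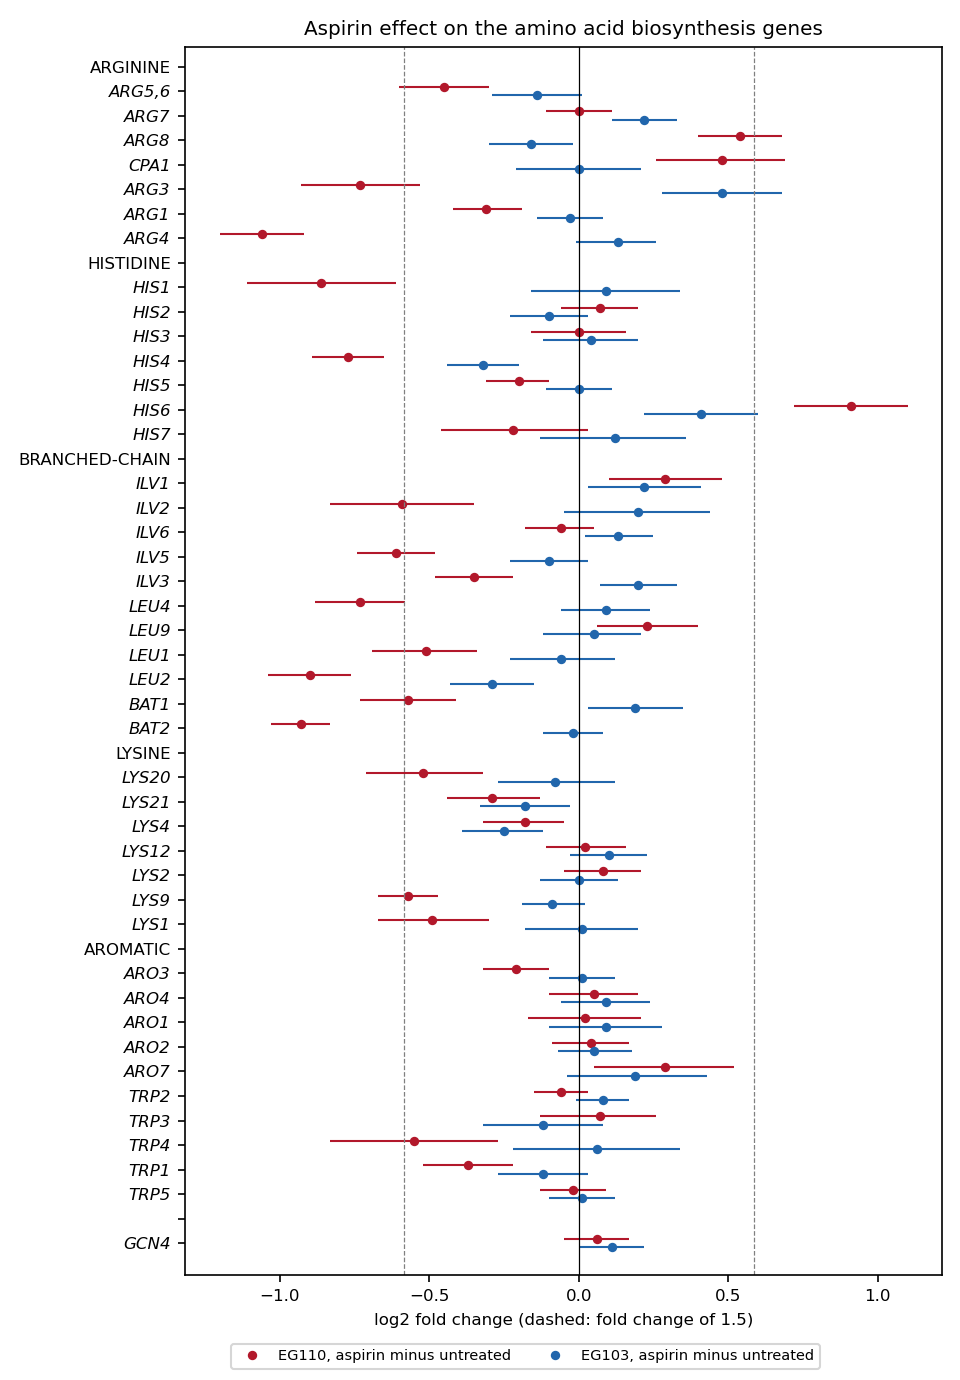
Log2 fold change with aspirin (x axis) of each member (y axis, by pathway), in EG110 cells (red, upper point) and EG103 cells (blue, lower point), with 95% intervals from limma and dashed lines at a fold change of 1.5. In EG110 cells 9 members lie beyond the left line and 1 beyond the right line, while 0 do so in EG103 cells.

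In the branched-chain pathway, which makes isoleucine, valine and leucine, *BAT2*, *LEU2*, *LEU4*, *ILV5* and *ILV2* fell with aspirin in EG110 cells. The median log2 fold change of its 11 genes was -0.57 in EG110 cells and 0.09 in EG103 cells. *BAT2* (YJR148W) encodes the cytosolic branched-chain aminotransferase, which carries out the last step of synthesis and the first of breakdown. Its log2 values were 12.69, 12.71 and 12.70 in aspirin-treated EG110 cells and 13.62, 13.69 and 13.58 in untreated EG110 cells. They were 13.65, 13.71 and 13.59 in aspirin-treated EG103 cells and 13.67, 13.68 and 13.66 in untreated EG103 cells. Only the treated EG110 arrays stood apart, well below the other 9, which overlapped. The log2 fold change was -0.93 in EG110 cells (standard error 0.047, adjusted P = 3.6e-08), a 1.91-fold fall, and -0.02 in EG103 cells (95% interval -0.12 to 0.08, adjusted P = 0.822), and the difference between the strains was -0.91 (adjusted P = 2.31e-06).

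*BAT1* (YHR208W) encodes the mitochondrial aminotransferase of the same reaction. It had log2 values of 11.90, 11.92 and 11.83 in aspirin-treated EG110 cells and 12.45, 12.55 and 12.36 in untreated EG110 cells, with no overlap. The log2 fold change of -0.57 (adjusted P = 5.4e-05) lay just short of the fold threshold. In EG103 cells the values were 12.41, 12.29 and 12.39 with aspirin and 12.21, 12.02 and 12.30 without, which overlapped, and their means differed by 0.19 (adjusted P = 0.0868). The aspirin effects therefore pointed in opposite directions, and their difference of -0.76 (standard error 0.1, adjusted P = 0.000206) passed both thresholds.

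*LEU4* (YNL104C) and *LEU9* (YOR108W) encode the isozymes of α-isopropylmalate synthase, the first step towards leucine, and *LEU4* supplies most of the activity. *LEU4* had log2 values of 12.81, 12.81 and 12.94 in aspirin-treated EG110 cells and 13.50, 13.72 and 13.52 in untreated EG110 cells. It had 14.18, 14.19 and 14.06 in aspirin-treated EG103 cells and 13.99, 14.10 and 14.06 in untreated EG103 cells, so that it fell 1.65-fold in EG110 cells (log2 fold change -0.73, adjusted P = 5.07e-06), while the EG103 groups overlapped (0.09, adjusted P = 0.363). The sign for *LEU9* was the opposite in EG110 cells. Its values were 11.19, 11.38 and 11.30 with aspirin and 11.05, 11.22 and 10.92 without, which overlapped, and differed by 0.23 (adjusted P = 0.0268), below the fold threshold. In EG103 cells *LEU9* averaged 10.46 ± 0.01 with aspirin and 10.42 ± 0.09 without it (SD, n = 3 each).

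*LEU1*, which encodes isopropylmalate isomerase, an iron-sulfur enzyme, and *LEU2*, which encodes β-isopropylmalate dehydrogenase, follow in the same branch. *LEU2* (YCL018W) had log2 values of 10.91, 10.90 and 10.90 in aspirin-treated EG110 cells and 11.69, 11.84 and 11.86 in untreated EG110 cells. In EG103 cells it had 11.88, 11.90 and 11.81 with aspirin and 12.14, 12.05 and 12.27 without. The treated arrays lay below the untreated ones in both strains, but the fall was 1.86-fold in EG110 cells (log2 fold change -0.90, adjusted P = 6.58e-07), against a log2 fold change of -0.29 in EG103 cells (adjusted P = 0.00975), below the fold threshold. The difference between the strains was -0.60 (adjusted P = 0.000418), and was -0.51 without replicate 2 of every group, -0.58 without untreated EG110 replicate 2, -0.57 without untreated EG110 replicate 3 and -0.55 without untreated EG103 replicate 2, each below the fold threshold. Both strains carry *leu2-3 112*, so this transcript comes from a mutant gene in every group. *LEU1* had a log2 fold change of -0.51 in EG110 cells (adjusted P = 0.000235), below the fold threshold, and of -0.06 in EG103 cells (adjusted P = 0.644).

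Apart from *ILV1*, the *ILV* genes encode the mitochondrial steps shared by isoleucine and valine. *ILV5* (YLR355C), for acetohydroxyacid reductoisomerase, had log2 values of 13.14, 13.19 and 13.19 in aspirin-treated EG110 cells and 13.75, 13.91 and 13.68 in untreated EG110 cells, which differed by -0.61 (adjusted P = 8.09e-06). *ILV2* (YMR108W), for the catalytic subunit of acetolactate synthase, had 11.63, 11.83 and 11.85 with aspirin and 12.30, 12.62 and 12.17 without, with -0.59 as the difference of the means (standard error 0.11, adjusted P = 0.000867). Neither pair of groups overlapped, but both values lay near the fold threshold. In EG103 cells *ILV5* had 13.46, 13.35 and 13.38 with aspirin and 13.49, 13.53 and 13.47 without, and *ILV2* had 12.67, 12.70 and 12.85 with aspirin and 12.55, 12.41 and 12.67 without. These gave log2 fold changes of -0.10 for *ILV5* (adjusted P = 0.255) and 0.20 for *ILV2* (adjusted P = 0.232). The aspirin effects differed between the strains by -0.79 for *ILV2* (adjusted P = 0.0027), which was called, and by -0.51 for *ILV5* (adjusted P = 0.000875), which was not. Without untreated EG110 replicate 2 the log2 fold changes in EG110 cells were -0.54 for *ILV5* and -0.46 for *ILV2*, and without replicate 2 of every group -0.55 and -0.49, so that neither was then called. *ILV2* was also not called without replicate 1 of every group (-0.55) or without aspirin-treated EG110 replicate 1 (-0.52). The regulatory subunit gene of the same synthase, *ILV6*, had a log2 fold change of -0.06 in EG110 cells (adjusted P = 0.314), with overlapping groups. *ILV3*, for the iron-sulfur enzyme dihydroxyacid dehydratase, had -0.35 (adjusted P = 0.00042) in EG110 cells and 0.20 (adjusted P = 0.033) in EG103 cells, both short of the fold threshold. For *ILV1*, the threonine deaminase gene that leads into isoleucine alone, the log2 fold change was positive in both strains, with 0.29 in EG110 cells (adjusted P = 0.0136) and 0.22 in EG103 cells (adjusted P = 0.0883).

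In the arginine pathway, *ARG4* and *ARG3* fell with aspirin in EG110 cells, while *ARG8* and *CPA1* were higher by less than the fold threshold. *ARG4* (YHR018C) encodes argininosuccinate lyase, the last step. It was measured at 11.02, 11.04 and 10.97 in aspirin-treated EG110 cells and 12.01, 12.22 and 12 in untreated EG110 cells. They were 13.19, 13.16 and 13.17 in aspirin-treated EG103 cells and 12.96, 13.08 and 13.11 in untreated EG103 cells. The groups did not overlap in either strain and lay in opposite order, with aspirin lower in EG110 cells and slightly higher in EG103 cells. The log2 fold change was -1.06 in EG110 cells (standard error 0.064, adjusted P = 1.46e-07), the largest aspirin effect of any member in either strain and the only one to reach a fold change of 2. It was 0.13 in EG103 cells (adjusted P = 0.184), and the difference was -1.19 (adjusted P = 3.08e-06).

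*ARG3* (YJL088W) encodes ornithine carbamoyltransferase, which makes citrulline in the cytosol of yeast. In aspirin-treated EG110 cells its log2 values were 10.74, 10.68 and 10.81, and in untreated EG110 cells 11.54, 11.58 and 11.31. In aspirin-treated EG103 cells they were 11.50, 11.59 and 11.25, and in untreated EG103 cells 11.05, 10.93 and 10.92. The treated arrays lay wholly below the untreated ones in EG110 cells and wholly above them in EG103 cells. *ARG3* fell 1.66-fold in EG110 cells (log2 fold change -0.73, adjusted P = 5.11e-05), and had 0.48 in EG103 cells (adjusted P = 0.00506), short of the fold threshold. The difference of -1.21 (standard error 0.13, adjusted P = 4.34e-05) was the largest among the members.

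The other arginine genes did not reach the fold threshold in either strain. *ARG8* (YOL140W), the mitochondrial acetylornithine aminotransferase gene, had log2 values of 12.39, 12.49 and 12.41 in aspirin-treated EG110 cells and 11.87, 11.97 and 11.83 in untreated EG110 cells. It had 12.15, 12.17 and 11.99 in aspirin-treated EG103 cells and 12.29, 12.33 and 12.17 in untreated EG103 cells. The EG110 groups were separated by 0.54 (adjusted P = 3.32e-05) and the EG103 groups overlapped (-0.16, adjusted P = 0.103). Its difference between the strains, 0.70 (adjusted P = 0.000163), was the only positive one that was called. *CPA1*, for the small subunit of the carbamoyl phosphate synthetase of this pathway, had 0.48 in EG110 cells (adjusted P = 0.00146). The log2 fold changes in EG110 cells were -0.45 (adjusted P = 0.000241) for *ARG5,6*, whose product is cut into the mitochondrial acetylglutamate kinase and the reductase that follows it, and -0.31 (adjusted P = 0.000445) for *ARG1*, the argininosuccinate synthetase gene. *ARG7*, the ornithine acetyltransferase gene, overlapped between the EG110 groups (95% interval -0.11 to 0.11). Of 7 other genes of arginine metabolism, which were *ARG2*, the ornithine carrier gene *ORT1*, the regulators *ARG80*, *ARG81* and *ARG82*, and the arginine breakdown genes *CAR1* and *CAR2*, 0 were called with aspirin by limma in either strain, with log2 fold changes of -0.26 to 0.31 in EG110 cells and -0.23 to 0.37 in EG103 cells. By the adjusted P alone, 7 passed in EG110 cells and 2 in EG103 cells, where 52.3% and 20.6% of all tested probe sets did.

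**Figure D2:**
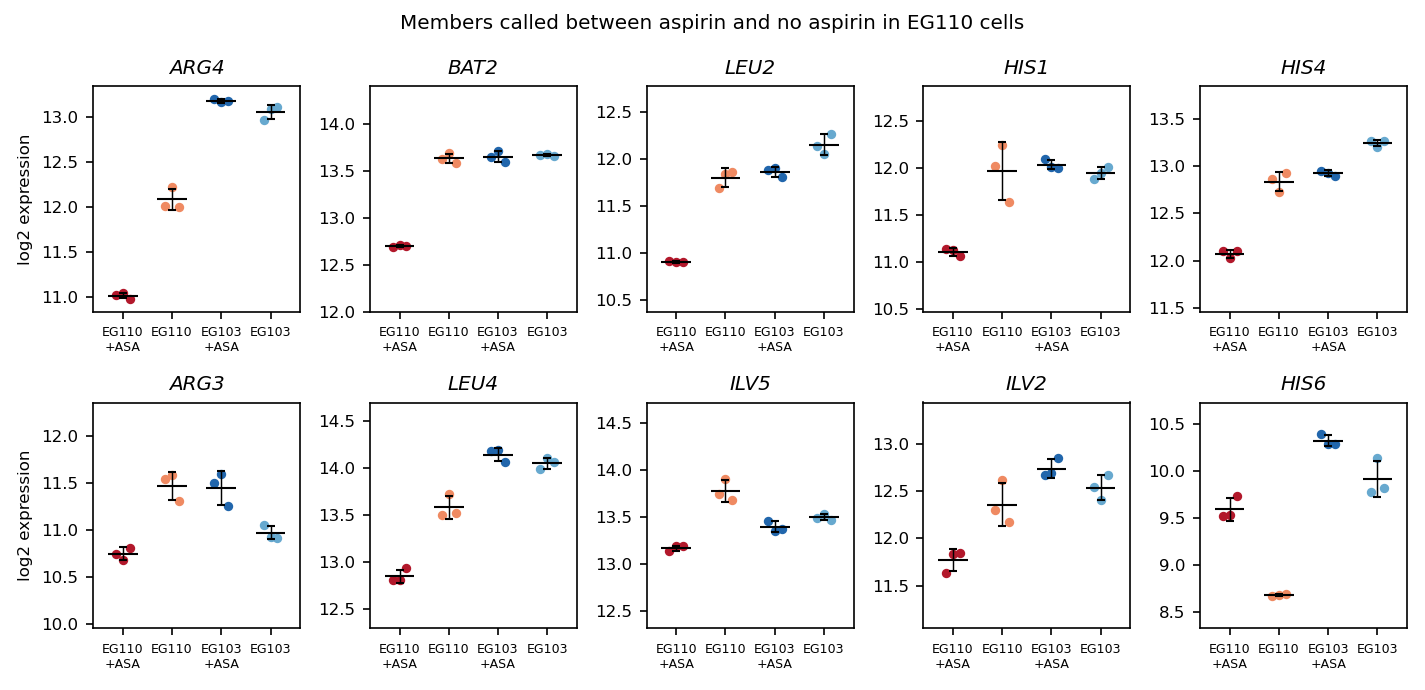
Log2 expression (y axis, 2.4 log2 units or more in each panel) of the 10 members called between aspirin-treated and untreated EG110 cells, by group (x axis). Points are arrays, and bars are the mean and SD of 3 arrays. For 9 genes the aspirin-treated EG110 arrays lie below the untreated EG110 arrays, and for *HIS6* above them.

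In the histidine pathway, *HIS1* and *HIS4* fell and *HIS6* rose with aspirin in EG110 cells. *HIS1* (YER055C) encodes ATP phosphoribosyltransferase, which commits the pathway. The arrays gave log2 values of 11.14, 11.13 and 11.07 in aspirin-treated EG110 cells and 12.03, 12.25 and 11.64 in untreated EG110 cells, where the spread between arrays was wide (SD 0.31). They were 12.10, 12.01 and 12 in aspirin-treated EG103 cells and 11.89, 11.95 and 12.01 in untreated EG103 cells. The EG110 groups did not overlap and the EG103 groups did. *HIS1* fell 1.82-fold in EG110 cells, with a log2 value of -0.86 ± 0.12 (SE, adjusted P = 7.81e-05), and had 0.09 (adjusted P = 0.623) in EG103 cells. Their difference, -0.95 (adjusted P = 0.000995), had an adjusted P of 0.0505 without replicate 1 of every group.

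*HIS4* (YCL030C) encodes an enzyme with several activities, among them the last step of the pathway. It had log2 values of 12.10, 12.03 and 12.10 in aspirin-treated EG110 cells and 12.87, 12.73 and 12.93 in untreated EG110 cells. It had 12.95, 12.93 and 12.90 in aspirin-treated EG103 cells and 13.27, 13.21 and 13.27 in untreated EG103 cells. Aspirin-treated arrays lay below untreated ones in both strains, with log2 fold changes of -0.77 in EG110 cells (adjusted P = 5.63e-07), a 1.7-fold fall, and -0.32 in EG103 cells (adjusted P = 0.00248), short of the fold threshold. The difference of -0.45 (adjusted P = 0.00098) was also short of it.

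*HIS6* (YIL020C), for the isomerase of the middle of the pathway, was the only member called higher with aspirin. Its probe set was among the 25% dimmest of those tested. Its log2 values were 9.52, 9.53 and 9.73 in aspirin-treated EG110 cells and 8.67, 8.68 and 8.69 in untreated EG110 cells. They were 10.39, 10.28 and 10.28 in aspirin-treated EG103 cells and 9.77, 10.13 and 9.82 in untreated EG103 cells. The untreated EG110 arrays were the lowest of all, and aspirin-treated arrays lay above untreated ones in both strains. The rise was 1.88-fold in EG110 cells (log2 fold change 0.91, standard error 0.088, adjusted P = 6.57e-06), beside a log2 fold change of 0.41 in EG103 cells (adjusted P = 0.00874), and the difference of 0.50 (adjusted P = 0.00943) was short of the fold threshold. Of the other histidine genes, *HIS5*, for histidinol phosphate aminotransferase, had -0.20 in EG110 cells (adjusted P = 0.00426), and *HIS7*, for the glutamine amidotransferase and cyclase, had -0.22 (adjusted P = 0.121). *HIS2*, for histidinol phosphatase, had 0.07 (adjusted P = 0.35).

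In the lysine pathway, 0 of 7 genes were called with aspirin in either strain by limma, although 5 were lower in EG110 cells at an adjusted P below 0.05 alone. Over all 5716 tested probe sets, 1434 were lower at that threshold. Nearest to the fold threshold was *LYS9* (YNR050C), for the saccharopine dehydrogenase that forms saccharopine. It had log2 values of 12.69, 12.72 and 12.68 in aspirin-treated EG110 cells and 13.28, 13.31 and 13.22 in untreated EG110 cells, which did not overlap. The log2 fold change was -0.57 (adjusted P = 1.94e-06) in EG110 cells and -0.09 (adjusted P = 0.208) in EG103 cells. The isozymes of homocitrate synthase, which start the pathway, had log2 fold changes of -0.52 for *LYS20* (adjusted P = 0.000473) and -0.29 for *LYS21* (adjusted P = 0.00445) in EG110 cells. For *LYS1*, the saccharopine dehydrogenase that releases lysine, the value was -0.49 (adjusted P = 0.000614). *LYS4*, for homoaconitase, an iron-sulfur enzyme, had log2 fold changes below the fold threshold in both strains, with -0.18 in EG110 cells (adjusted P = 0.0272) and -0.25 in EG103 cells (adjusted P = 0.0159). *LYS12*, for homoisocitrate dehydrogenase, and *LYS2*, for aminoadipate reductase, overlapped between the EG110 groups, with 95% intervals of -0.11 to 0.16 and -0.05 to 0.21. The further lysine genes *LYS5*, *LYS14* and *MKS1* lay between -0.02 and 0.06 in EG110 cells.

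In EG110 cells the aromatic pathway had the median aspirin effect closest to 0 of the 5 pathways. It was 0.02 in EG110 cells and 0.06 in EG103 cells over 9 genes, of which 0 were called by limma in either strain. By the adjusted P alone, 3 passed in EG110 cells and 0 in EG103 cells, where 52.3% and 20.6% of all tested probe sets did. Genes of the shared trunk up to chorismate were close to no change in EG110 cells. The log2 fold changes were 0.05 for *ARO4* and -0.21 for *ARO3*, the isozymes of the entry step that tyrosine and phenylalanine inhibit, 0.02 for *ARO1*, which encodes an enzyme with several activities, and 0.04 for *ARO2*, the chorismate synthase gene. Of these only *ARO3* had an adjusted P below 0.05 (0.00362). *TRP4* (YDR354W), the anthranilate phosphoribosyltransferase gene, stood apart from this group. It had log2 values of 10.41, 10.48 and 10.31 in aspirin-treated EG110 cells and 10.95, 11.30 and 10.62 in untreated EG110 cells, where it had the largest SD of the members with a tested probe set (0.34). They were 11.59, 11.60 and 11.53 in aspirin-treated EG103 cells and 11.50, 11.45 and 11.60 in untreated EG103 cells. The EG110 groups did not overlap and the EG103 groups did. For EG110 cells the log2 fold change was -0.55 (adjusted P = 0.00326). The difference of -0.61 (adjusted P = 0.022) passed both thresholds, but lay between -0.79 and -0.43 when arrays were left out. It was lost without replicate 1 of every group (-0.60, adjusted P = 0.194), without replicate 2 of every group (-0.43), without aspirin-treated EG110 replicate 3 (-0.57), without untreated EG110 replicate 2 (-0.44) and without untreated EG103 replicate 2 (-0.58). *TRP2*, *TRP3* and *TRP5*, for the other enzymes from chorismate to tryptophan, had log2 fold changes of -0.06, 0.07 and -0.02 in EG110 cells, and *ARO7*, for chorismate mutase, had 0.29 (adjusted P = 0.0424).

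*GCN4* (YEL009C) itself lay near the top of the range of the arrays and was not called in any comparison. The log2 values of *GCN4* were 14.41, 14.41 and 14.41 in aspirin-treated EG110 cells and 14.34, 14.35 and 14.36 in untreated EG110 cells. They were 14.62, 14.65 and 14.58 in aspirin-treated EG103 cells and 14.56, 14.55 and 14.41 in untreated EG103 cells. Aspirin-treated arrays were slightly above the untreated ones in both strains, by 0.06 (95% interval -0.05 to 0.17, adjusted P = 0.337) in EG110 cells and 0.11 (95% interval 0.00 to 0.22, adjusted P = 0.129) in EG103 cells. Untreated EG110 and EG103 cells differed by -0.16 (adjusted P = 0.013), without overlap of the arrays. The strain difference was -0.11 after quantile normalization (adjusted P = 0.0386) and 0.07 after centring (adjusted P = 0.283). These values are of the mRNA, and Gcn4 protein was not measured on the arrays. Of the 13 other genes of general amino acid control, which encode Gcn2 and its partners, subunits of the initiation factors eIF2 and eIF2B, and the Gcn4-degrading cyclin Pcl5, 0 were called with aspirin by limma in either strain. In EG110 cells 6 were higher and 0 lower at an adjusted P below 0.05 alone, a threshold that 52.3% of all tested probe sets passed. Among the 6 were *GCD6*, for the catalytic subunit of eIF2B, at 0.41 on the log2 scale (adjusted P = 7.01e-05), and *GCN2* at 0.21 (adjusted P = 0.0233). In EG103 cells *GCD6* had 0.09 (adjusted P = 0.256) and *GCN2* 0.28 (adjusted P = 0.0181). There 2 of the 13 were higher and 0 lower by the adjusted P alone, which 20.6% of all passed.

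The mean over the genes of a pathway was also taken on each array. For the branched-chain genes this mean was 12.09, 12.14 and 12.13 on the aspirin-treated EG110 arrays, 12.50, 12.66 and 12.49 on the untreated EG110 arrays, 12.67, 12.68 and 12.63 on the aspirin-treated EG103 arrays and 12.61, 12.57 and 12.64 on the untreated EG103 arrays. Thus the aspirin-treated EG110 arrays lay below the other 9. The arginine genes averaged 11.86 in aspirin-treated EG110 cells and 12.08 in untreated EG110 cells, the histidine genes 10.98 in treated and 11.13 in untreated EG110 cells, and the lysine genes 12.03 in treated and 12.31 in untreated EG110 cells, each without overlap of the arrays. For the aromatic genes the EG110 groups overlapped, at 11.71, 11.77 and 11.70 with aspirin and 11.77, 11.87 and 11.67 without. Untreated EG110 replicate 2 was the highest of its group in each of the 5 pathways.

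**Figure D3:**
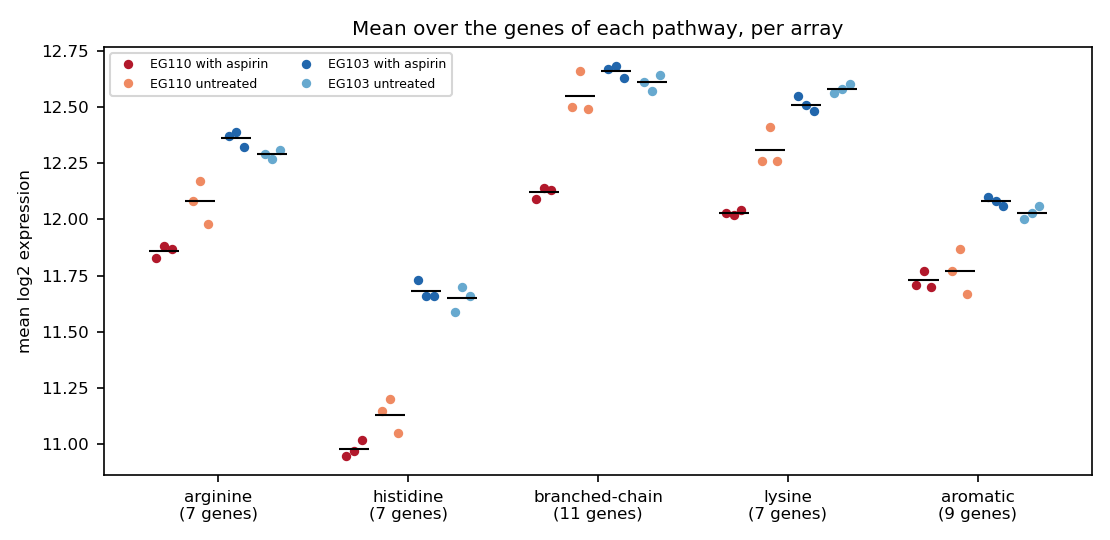
Mean log2 expression (y axis) over the genes of each pathway (x axis), with a point for each array and a line at the mean of 3 arrays. In EG110 cells the aspirin-treated arrays lie below the untreated ones for every pathway but the aromatic one, where the groups overlap. Levels of different pathways come from different probes and are not comparable with each other.

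Between the strains without aspirin, 8 members were lower and 1 higher in EG110 than in EG103 cells, and 33 were not called. This is 21.4% of the members, against 24.8% of all tested probe sets (17.4% lower and 7.45% higher), and the median of the members, -0.24, lay close to that of all tested probe sets, -0.20. With each array centred on its median, 4 members were called lower and 2 higher, against 8.14% and 13.2% of all, and the same counts were obtained after quantile normalization of the 12 arrays together, against 9.67% and 10.8%. By pathway, 3 of 7 histidine genes, 2 of 7 lysine genes, 2 of 9 aromatic genes, 1 of 7 arginine genes and 1 of 11 branched-chain genes were called on the deposited values. *ARG4*, *HIS3*, *HIS6* and *LYS1* were called lower under all of these scalings, and *LEU9* higher, while *ARG3* was called higher only after rescaling, with a log2 difference of 0.51 as deposited, 0.73 after centring and 0.72 after quantile normalization. *HIS2*, *LYS4*, *ARO7* and *TRP5* were called on the deposited values alone.

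*HIS6*, whose untreated arrays are given above and did not overlap between the strains, was 2.34-fold lower in untreated EG110 than in untreated EG103 cells (log2 difference -1.22, standard error 0.088, adjusted P = 2.06e-07), or -1.03 relative to the median of all. For *LYS1* (YIR034C) the log2 values were 10.87, 11.10 and 10.72 in untreated EG110 cells and 11.96, 12.06 and 12.03 in untreated EG103 cells. Its difference was -1.12 (adjusted P = 3.45e-07), or -0.92 relative to the median, and the groups were far apart. *ARG4* differed by -0.97 (adjusted P = 1.09e-07), or -0.78 relative to the median. *ARG4* was therefore lower in EG110 cells before any aspirin and lower again with it. *LEU9*, the second α-isopropylmalate synthase gene, was higher in EG110 cells, with log2 values of 11.05, 11.22 and 10.92 in untreated EG110 cells and 10.41, 10.33 and 10.51 in untreated EG103 cells, a difference of 0.65 (adjusted P = 1.16e-05), or 0.84 relative to the median. Without untreated EG110 replicate 2 the difference was 0.57, and without replicate 2 of both groups 0.53, both short of the fold threshold. *LEU4* differed by -0.47 (adjusted P = 5.81e-05), or -0.27 relative to the median, which was not called. The isozyme genes thus had opposite signs between the strains, as they had with aspirin in EG110 cells, whereas with aspirin in EG103 cells both were positive. *HIS2* (YFR025C) had log2 values of 10.93, 10.97 and 11.09 in untreated EG110 cells and 11.73, 11.87 and 11.68 in untreated EG103 cells, with a difference of -0.76 (adjusted P = 4.23e-07), or -0.57 relative to the median. *ARO7* (YPR060C) had 9.84, 10.00 and 9.48 in untreated EG110 cells and 10.41, 10.50 and 10.58 in untreated EG103 cells. Neither gene overlapped between the strains. *ARO7* differed by -0.73 on the deposited values (adjusted P = 6.72e-05), and was short of the fold threshold without untreated EG110 replicate 3 (-0.58) and without replicate 3 of both groups (-0.54), as did *TRP5* in the second case (-0.58, against -0.63 with all arrays).

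**Figure D4:**
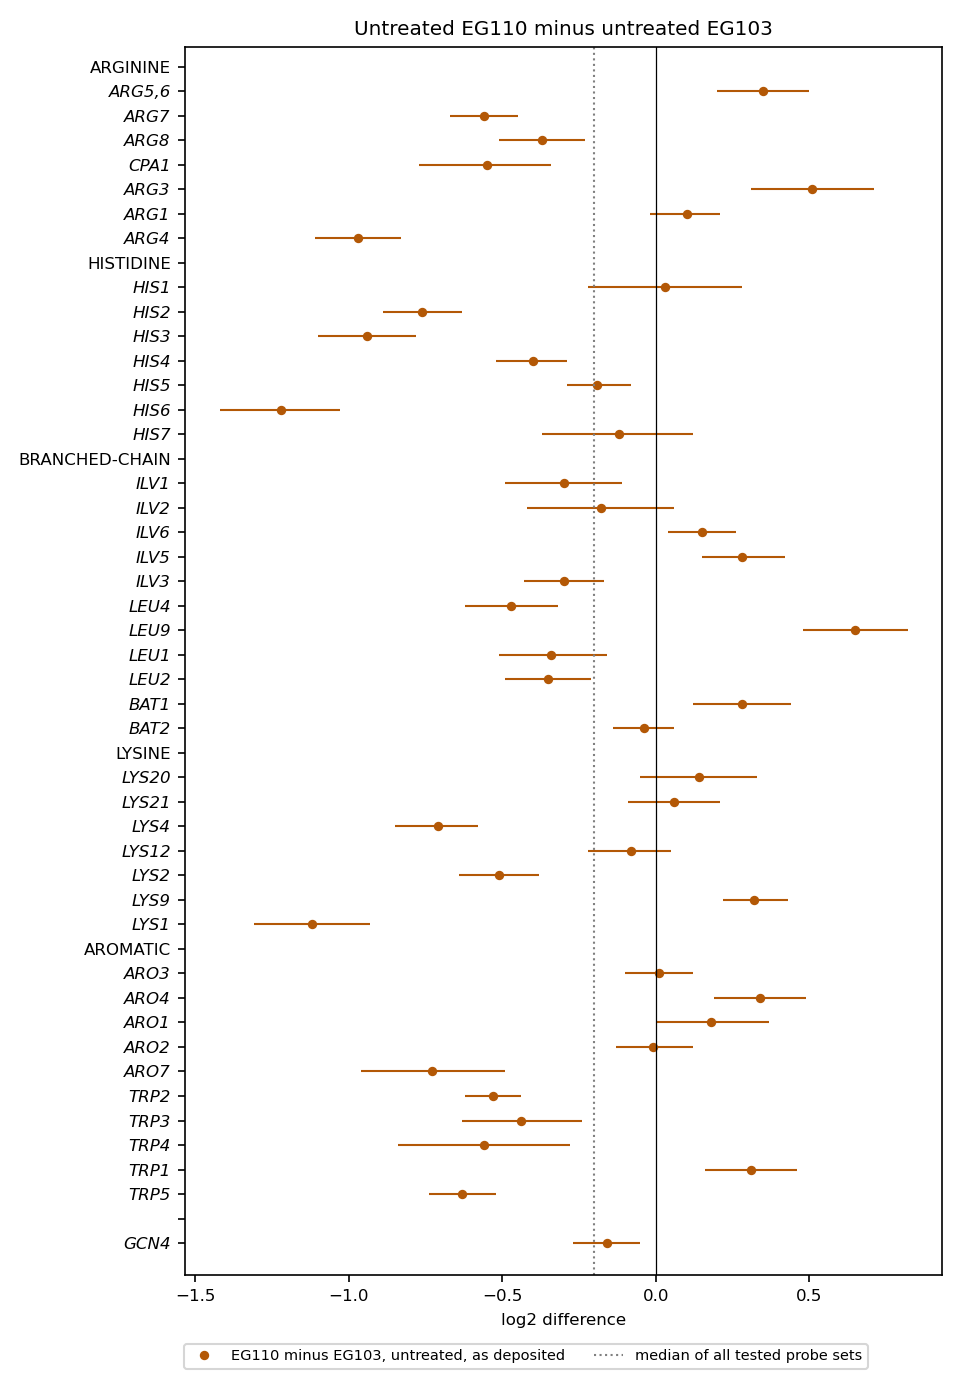
Log2 difference of untreated EG110 minus untreated EG103 cells (x axis) for each member (y axis, by pathway), as deposited, with 95% intervals from limma. The dotted line is the median of all tested probe sets, at -0.20, and the members lie on both sides of it, from -1.22 for *HIS6* to 0.65 for *LEU9*.

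Some members are also genetic markers of these strains. In the strain difference of *TRP1*, regulation and the way EG110 was built cannot be told apart, whereas the *leu2* and *his3* alleles are the same in all groups. *TRP1* (YDR007W), for phosphoribosylanthranilate isomerase, stands in EG110 both as *trp1-289a* at its own locus and as the copy that replaced *SOD2*. Which of these its probe set reads was not tested. Its log2 values were 12.13, 12.09 and 11.98 in aspirin-treated EG110 cells and 12.49, 12.54 and 12.29 in untreated EG110 cells. They were 11.94, 12.01 and 12.08 in aspirin-treated EG103 cells and 12.12, 12.09 and 12.17 in untreated EG103 cells. The untreated EG110 arrays were above all others, and the aspirin-treated EG110 arrays overlapped those of both EG103 groups. Untreated EG110 cells exceeded untreated EG103 cells by 0.31 (adjusted P = 0.00146), or 0.51 relative to the median. *TRP2*, *TRP3*, *TRP4* and *TRP5* had log2 differences of -0.53, -0.44, -0.56 and -0.63, or -0.34, -0.24, -0.37 and -0.44 relative to the median. Only that of *TRP5* was called, and on the deposited values alone. Differences of the size of that of *TRP1* were also found for members that are no markers, such as *ARO4* (0.34, or 0.54 relative to the median) and *ARG5,6* (0.35, or 0.54). With aspirin the log2 fold change of *TRP1* was -0.37 in EG110 cells (adjusted P = 0.000809) and -0.12 in EG103 cells (adjusted P = 0.25). Each of these values was below the fold threshold, and the aspirin effects differed by -0.25 (adjusted P = 0.064).

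*HIS3* (YOR202W), for imidazoleglycerol phosphate dehydratase, carries the internal deletion *his3Δ1* in both strains. Its log2 values were 11.19, 11.22 and 11.32 in aspirin-treated EG110 cells and 11.22, 11.35 and 11.17 in untreated EG110 cells. They were 12.31, 12.22 and 12.17 in aspirin-treated EG103 cells and 12.05, 12.30 and 12.21 in untreated EG103 cells. Treated and untreated arrays overlapped in both strains (95% intervals of the aspirin effect -0.16 to 0.16 in EG110 and -0.12 to 0.20 in EG103 cells), but the strains were apart by -0.94 (adjusted P = 3.52e-07), or -0.75 relative to the median. Whether the probes lie inside the deleted part was not tested, and a signal was present in every group. *LEU2*, the other marker, differed by -0.35 between the untreated strains (adjusted P = 0.000349), or -0.16 relative to the median, which was not called. *URA3*, a marker outside these pathways that carries a transposon insertion (*ura3-52*) in both strains, had log2 values of 9.29, 9.15 and 9.16 in aspirin-treated EG110 cells and 10.27, 10.27 and 9.98 in untreated EG110 cells. It had 8.49, 8.58 and 9.14 in aspirin-treated EG103 cells and 8.86, 8.55 and 9.27 in untreated EG103 cells, and thus fell with aspirin in EG110 cells (log2 fold change -0.97, adjusted P = 0.000974), while the EG103 groups overlapped. Between the untreated strains *URA3* was higher in EG110 cells by 1.28 (adjusted P = 5.69e-05).

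**Figure D5:**
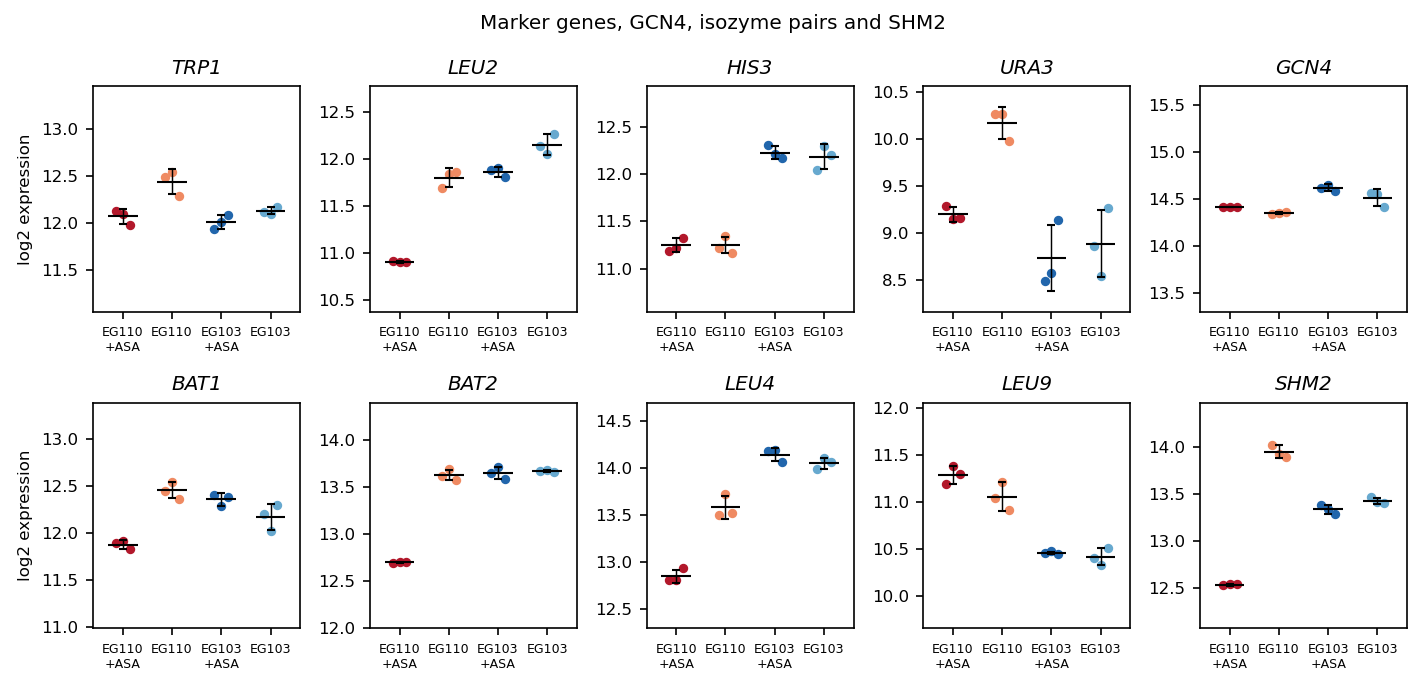
Log2 expression (y axis) of the marker genes *TRP1*, *LEU2*, *HIS3* and *URA3*, of *GCN4*, of the isozyme genes *BAT1* and *BAT2* and *LEU4* and *LEU9*, and of *SHM2*, by group (x axis). Points are arrays, and bars are the mean and SD of 3 arrays. *TRP1* is highest in untreated EG110 cells, while for *HIS3* the EG110 arrays lie below the EG103 arrays and the treated and untreated arrays of each strain overlap.

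Genes of other amino acids were set beside the members. Of 25 such genes, for serine, glycine, the aspartate and glutamate families, proline and alanine, 2 fell and 1 rose with aspirin in EG110 cells, a share of 12%, the same as over all tested probe sets. *SHM2* (YLR058C), for the cytosolic serine hydroxymethyltransferase, had log2 values of 12.54, 12.55 and 12.55 in aspirin-treated EG110 cells and 14.02, 13.93 and 13.90 in untreated EG110 cells. It had 13.39, 13.34 and 13.29 in aspirin-treated EG103 cells and 13.47, 13.42 and 13.41 in untreated EG103 cells, so that its log2 fold change was -1.41 in EG110 cells (adjusted P = 2.1e-09), further than any member, and -0.09 in EG103 cells (adjusted P = 0.185). The treated EG110 arrays were the lowest and the untreated EG110 arrays the highest of the 12. *SER1*, for phosphoserine aminotransferase, changed by -0.60 (adjusted P = 4.11e-06) and *PRO1*, for glutamate kinase of the proline pathway, by 0.74 (adjusted P = 8.29e-06) in EG110 cells. In EG103 cells 1 of these genes was called, *HOM3*, for aspartate kinase, with 0.59 (adjusted P = 0.00823), against -0.05 in EG110 cells (adjusted P = 0.753) and a difference of -0.64 (adjusted P = 0.0159). The median of these 25 genes was -0.11 in EG110 cells and -0.02 in EG103 cells. Of the remaining genes of the aromatic and branched-chain pathways that are no members, such as *TYR1*, *ARO8*, *ARO9*, *ARO10*, *LEU3* and *OAC1*, 0 of 9 were called with aspirin in EG110 cells by limma. An adjusted P below 0.05 alone was found for 5 of them and for 52.3% of all tested probe sets. Among them *ARO10*, for the decarboxylase of aromatic and branched-chain amino acid breakdown, had the largest value, -0.49 (adjusted P = 3.57e-05), and *LEU3*, the regulator of the branched-chain genes, had 0.30 (adjusted P = 0.000485), opposite in sign to *LEU1*, *LEU2* and *LEU4*.

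The lists were also compared between the strains without aspirin, where 24.8% of all tested probe sets were called. Of the other amino acid genes 6 were lower and 2 higher in untreated EG110 than in untreated EG103 cells, a share of 32.0%. After centring 4 were lower and 5 higher, and after quantile normalization 5 were lower and 4 higher, so that the balance of directions depended on the scaling. *SER3* and *SER33* encode isozymes of phosphoglycerate dehydrogenase, the first step towards serine, and had opposite signs, with a log2 difference of -0.99 for *SER3* (adjusted P = 3.77e-05) and 0.72 for *SER33* (adjusted P = 7.15e-05). *ALT1*, for alanine transaminase, differed by -0.87 (adjusted P = 1.4e-08). The calls of *SER3*, *SER33* and *ALT1* held after centring and after quantile normalization. That of *SER1* was lost after centring but held after quantile normalization (-0.69), and that of *PRO2* was lost under both. In the aromatic list, where 2 of 6 genes were called, the transaminase genes *ARO9* and *ARO8* were lower in EG110 cells, by -1.26 and -0.83 as log2 differences (adjusted P = 9.64e-08 and 1.62e-07), and remained called after centring. In the arginine list, where 2 of 7 were called, *ARG80*, for a subunit of the arginine-responsive regulator, differed by -1.03 (adjusted P = 1.54e-07) and was called after centring and after quantile normalization. *CAR1*, for arginase, with -0.69 (adjusted P = 2.7e-07), was not called after centring (-0.47) but was after quantile normalization (-0.65). In the lysine list *MKS1* was called on the deposited values alone (-0.74, adjusted P = 3.87e-05). Of the 3 further branched-chain genes 0 were called, and 2 had an adjusted P below 0.05 alone, as did 72.6% of all tested probe sets. Of the general control genes 3 of 13 (23.1%, close to the share of all) were lower in EG110 cells, namely *PCL5* (-0.85), *GCD2* (-0.84), for a regulatory subunit of eIF2B, and *GCN20* (-0.79), for a partner of Gcn2 activation. *GCN20* was not called after centring (-0.57) but was after quantile normalization (-0.59).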

How the data were processed

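The data are 12 GeneChip Yeast Genome 2.0 arrays (Affymetrix), 3 biological replicates in each of 4 groups. The authors processed the scanner files with robust multi-array averaging (RMA) in AltAnalyze and deposited log2 intensity values per probe set. It was not established whether EG110 and EG103 arrays went through RMA in 1 run, and the annotation release was not given in the sources used here.

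The 5716 probe sets annotated to an *S. cerevisiae* gene were tested, and 4999 probe sets without such a gene and 213 control probe sets were left out. *TRP1*, which lies on a control probe set, was added to the tested probe sets in a separate fit, chosen after seeing the data. Groups were compared with limma version 3.58.1 in R 4.3.3, in a model of the 4 group means which leaves 8 residual degrees of freedom. Benjamini-Hochberg adjustment covered all tested probe sets, and the thresholds for a call were those of the methods (adjusted P under 0.05, fold change 1.5 or more). Contrasts were aspirin-treated minus untreated cells in each strain, untreated EG110 minus untreated EG103 cells, and the difference between the aspirin effects (interaction). A log2 fold change is the difference of group means of log2 values. Standard errors and 95% intervals come from the moderated variance. The script was tested on simulated data. With 3 arrays a group, the number of arrays limits the precision, and an exact permutation test of 3 against 3 arrays cannot give a P below 0.1.

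Replicate numbers are shared between the groups. The deviations of same-numbered treated and untreated EG110 arrays from their group means correlated at 0.229, 0.142 and 0.343, and those of differently numbered ones at -0.387 to 0.221. In EG103 cells the same-numbered values were 0.0166, 0.485 and 0.45, and the others -0.492 to 0.182. The main fit did not use the numbers as pairs, and blocking on the replicate number was run as an alternative. Other alternatives were the removal of each array or replicate, no fold threshold or one of 2, removal of the 25% dimmest probe sets, quantile normalization, median centring and the methods' t-test.

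The members and gene lists were chosen with earlier results of these data known, so no set test was run, and lists are described by counts and medians beside those of all tested probe sets. Any member could be named. Array values are given for called members (at most 6 per comparison and direction), *GCN4*, the marker genes and isozyme pairs with a called gene, and up to 3 called genes per list were named, beside a few list genes outside this rule that were chosen after their values were seen (*GCD6*, *GCN2*, *ARO10* and *LEU3*). Between the untreated strains, the called list genes *SER1* and *PRO2* were also named outside this rule. Array values of *LYS9*, *TRP4*, *SHM2* and *ILV5*, a called member beyond the 6 largest, were chosen after their values were seen or for an interaction call. Results for 2 genes of the lists are not reported here. Symbols were matched to RefSeq locus tags for all 43 members. Levels of different probe sets are not compared with each other.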

Additional observations from a re-analysis of the deposited data

Results flagged for a closer look

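For 10 members the effect of aspirin in EG110 cells differed from that in EG103 cells by the interaction test in limma. In the arginine pathway the difference was -1.21 for *ARG3* (aspirin effects -0.73 in EG110 and 0.48 in EG103 cells), -1.19 for *ARG4* (-1.06 in EG110 and 0.13 in EG103 cells) and 0.70 for *ARG8* (0.54 in EG110 and -0.16 in EG103 cells), all on the log2 scale. For *ARG3* and *ARG4* each of the 3 treated arrays lay below the untreated arrays in EG110 cells and above them in EG103 cells, an order that *ILV3* and *TRP2*, whose differences were not called, also showed. In the branched-chain pathway the difference was -0.91 for *BAT2*, -0.82 for *LEU4*, -0.79 for *ILV2*, -0.76 for *BAT1* and -0.60 for *LEU2*. It was -0.95 for *HIS1* and -0.61 for *TRP4*, the genes with the widest spread between the untreated EG110 arrays (SD 0.31 and 0.34). With aspirin, *LEU2* was lower than without in both strains, and the difference is one of size.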

How the results depend on the processing

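No called value changed direction under any alternative. The strain difference of *GCN4*, which was not called, was -0.16 as deposited, -0.11 after quantile normalization and 0.07 after centring. Without a fold threshold, calls over all tested probe sets were 2987 in EG110 cells, 1175 in EG103 cells, 4151 between the untreated strains and 1894 for the interaction, against 685, 149, 1419 and 662 with it, and those among the members were 28, 7, 31 and 24, against 10, 0, 9 and 10. With a fold change of at least 2 the counts over all were 197, 27, 404 and 206 in the same order, and among the members 1, 0, 2 and 2. Without the 25% dimmest probe sets, where fewer were tested, the counts over all were 418, 97, 940 and 401, and among the members 9, 0, 7 and 10. *HIS6* and *ARO7* were among the probe sets removed, and 0 members were then called higher with aspirin in EG110 cells. The methods' t-test called 60 in EG103 cells, and the cause was not tested. The members' median strain difference of -0.24 was -0.09 after quantile normalization and -0.02 after centring, which remove the shift between the arrays of the strains. Leaving out single arrays or replicates gave 664 to 720 calls over all and 8 to 15 among the members in EG110 cells, 72 to 195 and 0 in EG103 cells (72 without replicate 1), 1384 to 1533 and 7 to 11 between the untreated strains, and 580 to 716 and 8 to 12 for the interaction. With quantile normalization 9 members were called in EG110 cells, and *ILV2* and *ILV5* were not among them. With arrays centred on the median 12 members were called in EG110 cells, 11 of them lower. The shares of all tested probe sets were 12.2% and 12.1%. With the replicate number as a block, 684 probe sets were called in EG110 cells and no call of a member changed. Differences under the fold threshold or within the spread of 3 arrays could not be called, and whether the signal of *GCN4*, near the top of the intensity range, was compressed was not tested.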
